A study of Homo sapiens with 15 samples.

Results

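MAL2 and ACSL3 were the 2 genes with the smallest p-values when MDA-MB-231 cells given 0.5 nM ZJ-101 were compared with cells given DMSO, and both were lower at that concentration. They are 2 of the 59608 genes in the deposited table and 2 of the 13561 genes that were tested, which are those with a mean of at least 10 normalized read counts over all libraries. The pair was chosen by these measured p-values. Because this comparison chose them, every value of this pair set against DMSO below is a description, and the pair was tested only on the libraries of the 3 higher concentrations. Other genes were tested against DMSO as well.

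MDA-MB-231 is a human triple-negative breast cancer cell line, and ZJ-101 is a truncated synthetic analog of superstolide A, a macrolide from a marine sponge. Dishes of this 1 unmodified line in 2D culture received 0.1% DMSO alone or 0.5, 5, 50 or 500 nM ZJ-101 in DMSO for 6 h, and 3 biological replicates of each of these 5 groups gave 15 libraries of poly-A RNA. A normalized read count is the number of reads on a gene divided by the size factor of its library. The libraries held 12415519 to 15284762 reads on genes, with a median of 13320354.

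1 library of the group that chose the genes stood apart. Between replicates of a group, chi-square per degree of freedom of the reads over genes was 2.04 to 6.27, except that 0.5 nM replicate 2 had 11.1 against replicate 1 and 16.6 against replicate 3, which had 3.09 with each other. It had 18414 normalized counts of VIM against 14196 and 13587 in the other 2, and 3471 of EGFR against 4911 and 5340. Without it, the log2 difference from DMSO at 0.5 nM, defined below, was -0.53 for MAL2 and -0.38 for ACSL3, against -0.53 and -0.41 with it, and MAL2 and ACSL3 ranked 1 and 3 by p.

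The line was checked against markers. VIM, CD44, AXL, CAV1 and EGFR, which are high in mesenchymal-like breast cancer lines, summed to between 50785 and 54864 normalized counts in every library. The luminal genes ESR1, PGR, CDH1, EPCAM, GATA3 and FOXA1 summed to 549 to 708, and ESR1 had a mean of 0.744. Of 4 markers of other cells, CD3E was at 0 in all libraries, PTPRC had a mean of 1.43 and ALB a mean of 0.315, whereas the endothelial gene PECAM1 had a mean of 250.8. In such bulk samples, fewer cells of a type and less RNA per cell cannot be told apart.

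MAL2 encodes a small raft-associated membrane protein of the MARVEL domain family, known for carrying proteins across polarized cells to the apical surface in transcytosis and for its frequent high expression in carcinomas. ACSL3 encodes a long-chain acyl-CoA synthetase of the endoplasmic reticulum and of lipid droplets. Acyl-CoA synthetases attach coenzyme A to free fatty acids, which is the step that lets a fatty acid enter phospholipids, triglycerides, lipid droplets or oxidation.

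ACSL3 (ENSG00000123983.15) lies on the plus strand of chromosome 2 at 222860942 to 222944639 of GRCh38, and its canonical transcript in GENCODE release 44, ACSL3-201, has 17 exons and 5577 bases.

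The sequence just upstream of the ACSL3 start is shown because it is the control region of the gene whose level is followed below. These are the 156 bases before the first annotated transcript start, on the plus strand at chr2:222860786-222860941, from the RefSeq promoter table on GRCh38.p14, with matches to the GC box in capitals.
ACSL3 promoter: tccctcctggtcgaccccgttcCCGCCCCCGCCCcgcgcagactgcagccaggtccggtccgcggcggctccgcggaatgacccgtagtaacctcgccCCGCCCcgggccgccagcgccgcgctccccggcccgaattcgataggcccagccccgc
G or C made up 77.6% of these bases. The GC box, searched as GGGCGG on both strands, matched 3 times, and 2 of those matches lie end to end. At least 1 such match was found in 26.9% of windows of the same length from 35116 promoters. Each window is the first 156 bases of a promoter entry of 300 bases, so it need not end at a transcript start, as the ACSL3 stretch does. CCAAT, the E-box CACGTG and the sterol element TCACNCCAC, searched on both strands, did not match in this stretch, and they matched in 19.7%, 3.14% and 0.535% of the windows. These are matches of letters and not measured binding sites.

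MAL2 was low at the lowest concentrations, back at the DMSO level at 50 nM and low again at 500 nM. In DMSO, replicates 1 to 3 had 1927, 1888 and 1838 normalized read counts. At 0.5 nM they had 1326, 1321 and 1280, and at 5 nM 1375, 1308 and 1236. At 50 nM the values were 1840, 1871 and 1873, and at 500 nM 1513, 1484 and 1490. All 6 libraries of 0.5 and 5 nM were below the 3 libraries of 500 nM, and these were below all 6 libraries of DMSO and 50 nM. The libraries of 0.5 nM lay within the range of 5 nM, and those of 50 nM lay within the range of DMSO. The group means ± SD (n = 3) were 1884 ± 44.3 in DMSO, 1309 ± 24.8 at 0.5 nM, 1306 ± 69.5 at 5 nM, 1861 ± 18.8 at 50 nM and 1496 ± 15.7 at 500 nM.

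ACSL3 had the same low values at 0.5 and 5 nM but was highest at 500 nM. The DMSO libraries had 2734, 2767 and 2819 normalized read counts in replicates 1 to 3. At 0.5 nM the values were 2095, 2004 and 2169, and at 5 nM 2009, 2034 and 2066. At 50 nM they were 2610, 2908 and 2771, and at 500 nM 2974, 3035 and 2978. The libraries of 5 nM lay within the range of 0.5 nM, the DMSO libraries lay within the range of 50 nM, and the lowest library of 500 nM was above the highest of every other group. The means ± SD (n = 3) were 2773 ± 43.1 in DMSO, 2089 ± 82.4 at 0.5 nM, 2036 ± 28.8 at 5 nM, 2763 ± 149.1 at 50 nM and 2996 ± 34.2 at 500 nM.

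**Figure D1:**
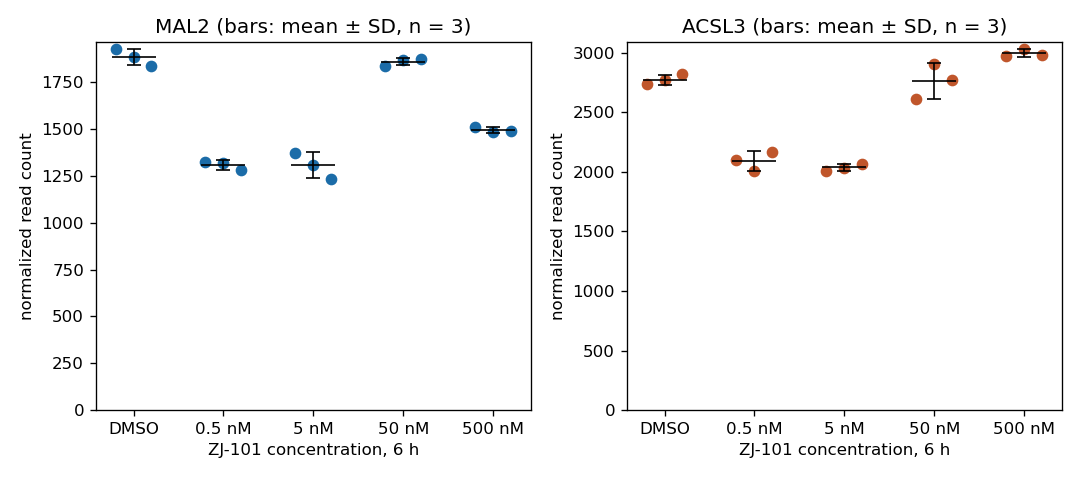
Normalized read counts of MAL2 (left) and ACSL3 (right) in each of the 15 libraries by ZJ-101 concentration, with replicates 1 to 3 from left to right in a group, and with the mean and SD of 3 libraries in black on axes that start at 0. Both genes are low at 0.5 and 5 nM and near DMSO at 50 nM, and at 500 nM MAL2 is at 1484 to 1513 whereas ACSL3 is at 2974 to 3035.

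The depth behind these values was similar for all libraries. MAL2 rested on 1200 to 2005 reads per library, a counting error of 2.23% to 2.89%, and ACSL3 on 2002 to 3372 reads, a counting error of 1.72% to 2.24%. The SD between replicates was 1.008% to 5.32% of the mean for MAL2 and 1.14% to 5.40% for ACSL3. The widest groups were 5 nM for MAL2 and 50 nM for ACSL3. Per kilobase of canonical transcript, the mean level over all libraries was 556.0 normalized counts for MAL2 and 453.9 for ACSL3.

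Differences from DMSO were taken on the scale of log2(normalized count + 1) and come with the standard error of a limma fit over the 15 libraries. For MAL2 they were -0.53 at 0.5 nM, -0.53 at 5 nM, -0.018 at 50 nM and -0.33 at 500 nM, each with a standard error of 0.044. The mean was thus at 69.5%, 69.3%, 98.8% and 79.4% of the DMSO mean. For ACSL3 they were -0.41, -0.45, -0.0068 and 0.11 in the same order, also with a standard error of 0.044, and the mean was at 75.3%, 73.4%, 99.6% and 108.0% of the DMSO mean. The same 3 DMSO libraries enter all of these differences. From 0.5 to 5 nM the difference was -0.0040 ± 0.044 for MAL2 and -0.036 ± 0.044 for ACSL3, so a step of 10 times in concentration moved each gene by less than its standard error.

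**Figure D2:**
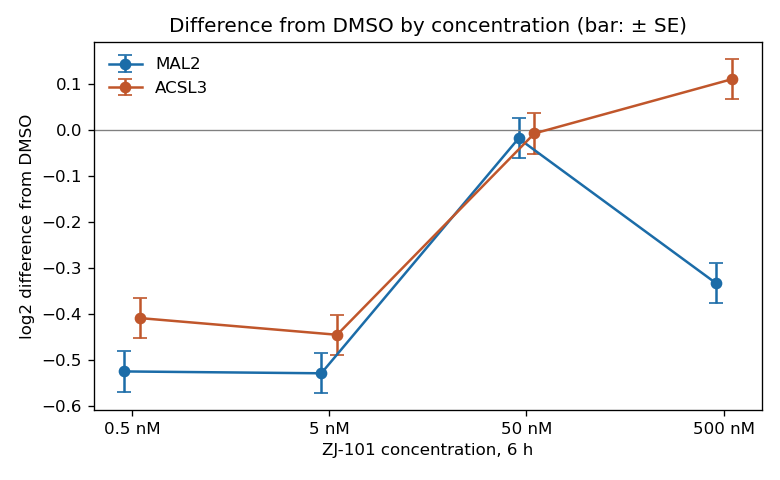
Difference from DMSO on the log2 scale for MAL2 and ACSL3 at each ZJ-101 concentration, with bars of 1 standard error from the fit over all 15 libraries. The curves run side by side from 0.5 to 50 nM and part at 500 nM, where MAL2 is at -0.33 and ACSL3 at 0.11.

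At the threshold of the choice, MAL2 ranked 1 and ACSL3 ranked 2 of all tested genes by p at 0.5 nM. Of the 13561 genes, 159 or 1.17% had an adjusted p under 0.05 in that comparison, 34 or 0.251% higher and 125 or 0.922% lower. Just outside were 3 genes that were higher at 0.5 nM: IL1B, a cytokine, by 0.66 on the log2 scale, CSF3, which encodes G-CSF, by 0.67, and MMP1, a collagenase, by 0.47. The next gene below DMSO was CEMIP, a hyaluronan-binding protein, which ranked 6 with -0.81 and a standard error of 0.10, against 0.044 for both chosen genes. Its difference was thus larger than those of the chosen genes, and so was its standard error.

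The libraries of 5, 50 and 500 nM played no part in the contrast that chose the genes, so differences between them were tested in a limma fit of these 9 libraries alone, with p adjusted over all 13561 genes by the Benjamini-Hochberg method. Their spread had nevertheless entered the pooled error of the fit behind the choice. From 5 to 50 nM both genes rose. MAL2 rose by 0.51 ± 0.045 (SE, n = 3 per group, limma adjusted p = 1.44e-06) and ACSL3 by 0.44 ± 0.043 (limma adjusted p = 5.28e-06), or 1.43-fold and 1.36-fold. Of all tested genes, 866 or 6.39% passed the threshold here, 3.29% of genes upward, and in 11.9% of genes the 3 libraries of 50 nM were all above the 3 of 5 nM, as they were for both genes.

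From 50 to 500 nM the genes went different ways. MAL2 fell by 0.32 on the log2 scale (SE 0.045, limma adjusted p = 6.61e-04), which is a level 1.24-fold lower. ACSL3 differed by 0.12 ± 0.043 (limma adjusted p = 0.170), which missed the threshold, with a 95% interval from 0.028 to 0.21 before adjustment. In this step 450 or 3.32% of genes passed, 2.30% of genes downward. All 3 libraries of 500 nM were below all of 50 nM for MAL2, as in 10.5% of genes, and above all of 50 nM for ACSL3, as in 9.67%.

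Both genes were higher at 500 than at 5 nM. MAL2 was higher by 0.20 ± 0.045 (limma adjusted p = 0.00666), or 1.15-fold, and ACSL3 by 0.56 ± 0.043 (limma adjusted p = 1.10e-07), or 1.47-fold. Of the tested genes, 1881 or 13.9% passed, 6.75% of genes upward, and 16.0% had all libraries of 500 nM above those of 5 nM, as both genes had. MAL2 at 500 nM thus lay between its levels at 5 nM and in DMSO, with 1496 normalized counts against 1306 and 1884. It was also below its level of 1861 at 50 nM.

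**Figure D3:**
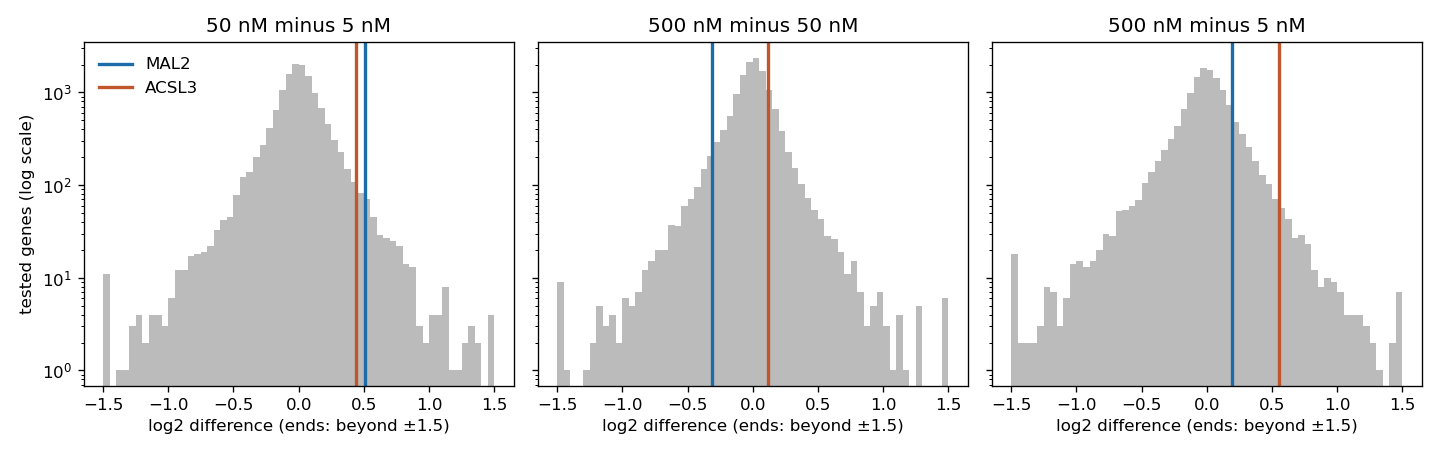
Histograms of the log2 differences between ZJ-101 concentrations for all 13561 tested genes, in bins of 0.05 with a log scale for the number of genes, with values beyond 1.5 gathered in the end bins and vertical lines at MAL2 and ACSL3. Both genes lie on the upper side for 50 minus 5 nM at 0.51 and 0.44, and on opposite sides of 0 for 500 minus 50 nM at -0.32 and 0.12.

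The split between the genes at 500 nM was also tested within libraries, where the scaling of a library cancels. The ratio of MAL2 to ACSL3 normalized counts, which is not per length, was 0.509, 0.489 and 0.500 in the 3 libraries of 500 nM. In the other 12 libraries it lay between 0.590 and 0.705, so the groups did not overlap. The mean ratio ± SD (n = 3) was 0.680 ± 0.026 in DMSO, 0.627 ± 0.035 at 0.5 nM, 0.642 ± 0.043 at 5 nM, 0.675 ± 0.031 at 50 nM and 0.499 ± 0.010 at 500 nM. An exact permutation test asked for any difference among 5, 50 and 500 nM, and it does not single out 500 nM. Over the 280 ways to split these 9 libraries into 3 groups, this exact permutation test gave p = 0.0143 for the log2 ratio. The same exact test gave p = 0.00357 for MAL2 and p = 0.00357 for ACSL3, the smallest p that these arrangements can give. After Benjamini-Hochberg adjustment over the 3 exact tests the values were 0.0143, 0.00536 and 0.00536.

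The curves were recomputed without each library. With each left out in turn, the difference at 0.5 nM lay between -0.54 and -0.51 for MAL2 and between -0.44 and -0.38 for ACSL3. For MAL2 the step from 5 to 50 nM lay between 0.47 and 0.55, with the lower end without 5 nM replicate 3 and the upper end without 5 nM replicate 1. For ACSL3 it lay between 0.40 without 50 nM replicate 2 and 0.48 without 50 nM replicate 1. The limma adjusted p for MAL2 from 5 to 500 nM reached 0.0406 at most. These 2 libraries of 50 nM also set the range of ACSL3 from 50 to 500 nM, 0.078 without replicate 1 and 0.16 without replicate 2, and its range at 50 nM against DMSO, 0.034 and -0.044. The difference from 50 to 500 nM missed the threshold in each of the 9 fits. In the 15 fits with 1 library left out, the rank of MAL2 by p at 0.5 nM was 1 or 2 and that of ACSL3 between 2 and 4. In the 6 libraries of 0.5 nM and DMSO alone, MAL2 ranked 1 and ACSL3 ranked 6.

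The low values at both low concentrations were shared by other genes. This count was chosen after the values had been seen and includes the libraries that chose the genes. In 190 tested genes (1.40%), MAL2 and ACSL3 among them, all 6 libraries of 0.5 and 5 nM were below all 6 of DMSO and 50 nM, and in 112 genes (0.826%) they were all above. With the libraries of 500 nM also all above those of 0.5 and 5 nM and all below those of DMSO, as for MAL2, there were 6 genes (0.0442%). The others were AMOTL2, GOLM1, NXN, SUSD2 and TNFRSF21. This count did not set 500 nM against 50 nM, so these genes need not share the second fall of MAL2. In AMOTL2 the 2 groups overlapped, with 2298 to 2345 normalized counts at 500 nM and 2267 to 2433 at 50 nM. With the libraries of 500 nM above all the rest, as for ACSL3, there were 12 genes (0.0885%).

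The other acyl-CoA synthetases were measured to see whether the enzyme family moved with ACSL3. At 0.5 and 5 nM, 0 of the 13 other tested members passed the limma threshold in either direction, where 1.17% and 2.18% of all genes did, the latter 0.465% higher and 1.71% lower. At 50 nM 2 were higher and 1 lower against a background of 6.00% of all genes, 2.29% higher and 3.71% lower. At 500 nM 2 were higher and 2 lower against 17.8% of all genes, 7.69% higher and 10.1% lower. The median difference of these 13 was 0.025, 0.022, 0.071 and -0.016 from the lowest to the highest concentration, and the median of all tested genes was -0.0069, -0.00028, -0.0023 and 0.0027. From 5 to 50 nM, where ACSL3 rose, 0 of the 13 passed against 6.39% of all genes. From 5 to 500 nM, where ACSL3 was also higher, 4 of the 13 passed upward and 0 downward against 6.75% of all genes upward. They were ACSL4 (0.17), ACSL5 (0.15), SLC27A4 (0.26) and SLC27A2 (0.87), the last on a mean of only 27.3 normalized counts.

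Per kilobase of transcript, ACSL3 was 1 of 4 family members of like abundance, with 453.9 normalized counts beside 650.2 for ACSL5, 453.3 for SLC27A4 and 420.5 for ACSL4. ACSL4, the isoform that prefers arachidonic acid, had 2015 ± 119 normalized counts in DMSO, 1990 ± 85.7 at 0.5 nM and 2209 ± 116 at 500 nM (SD, n = 3), and its differences from DMSO lay between -0.04 and 0.13. ACSL1 lay between 0.02 and 0.19 on that scale, and neither passed the threshold at any concentration. ACSL5, a mitochondrial and ER isoform, rose by 0.33 ± 0.048 at 500 nM (limma adjusted p = 5.63e-05). SLC27A4, a fatty acid transport protein with synthetase activity, rose by 0.36 ± 0.043 (limma adjusted p = 5.61e-06).

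Of the members that were lower at 500 nM, ACSS1, a mitochondrial acetyl-CoA synthetase, had -0.35 ± 0.10 (limma adjusted p = 0.0193) and ACSS3, a mitochondrial short-chain synthetase, -0.31 ± 0.064 (limma adjusted p = 0.00180). The call of ACSS1 was lost without DMSO replicate 2, without DMSO replicate 3 and without 500 nM replicate 3, whereas those of ACSL5, SLC27A4 and ACSS3 held without any 1 library. AACS, ACSF2, ACSF3, ACSS2, SLC27A1, SLC27A2 and SLC27A5 passed against DMSO at no concentration. ACSL6, ACSBG1, ACSBG2, SLC27A3 and SLC27A6 were below the minimum, each with a mean under 1 normalized count.

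In the MARVEL domain family, to which MAL2 belongs, 0 of 15 other tested members passed at 0.5, 5 or 50 nM, where 1.17%, 2.18% and 6.00% of all genes did, and 1 was lower at 500 nM, where 10.1% of all genes were. The median difference of the 15 was -0.036, -0.030, 0.029 and 0.012 across the concentrations. The member that passed was SYNGR3, a synaptic vesicle protein, with -0.66 ± 0.20 at 500 nM (limma adjusted p = 0.0310) on a mean of only 31.9 normalized counts, and the call was lost when DMSO replicate 2 or 3 or 500 nM replicate 1 or 2 was left out. From 5 to 50 nM, 1 member was higher, SYPL1, a vesicle protein, by 0.21, where 3.29% of all genes were higher. In this step 13 of the 15 had a positive difference, with a median of 0.091 against -0.00075 for all tested genes. From 50 to 500 nM 0 passed and 3 of the 15 had a positive difference, with a median of -0.043 against 0.0031.

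PLLP, which encodes the myelin and epithelial protein plasmolipin, also had low values at 0.5 and 5 nM but did not pass at any concentration. It had 377 ± 13.5 normalized counts in DMSO, 292 ± 12.96 at 0.5 nM, 297 ± 16.9 at 5 nM, 373 ± 64.2 at 50 nM and 355 ± 47.2 at 500 nM (SD, n = 3). Unlike those of MAL2, its libraries of 500 nM spanned the range of DMSO. MALL, a relative of MAL, had 0.19 at 0.5 nM and 0.01 at 5 nM on the log2 scale. CMTM6, a regulator of PD-L1, lay between -0.12 and -0.03. MAL itself had a mean of 0.198 normalized counts and was 1 of 10 members below the minimum.

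**Figure D4:**
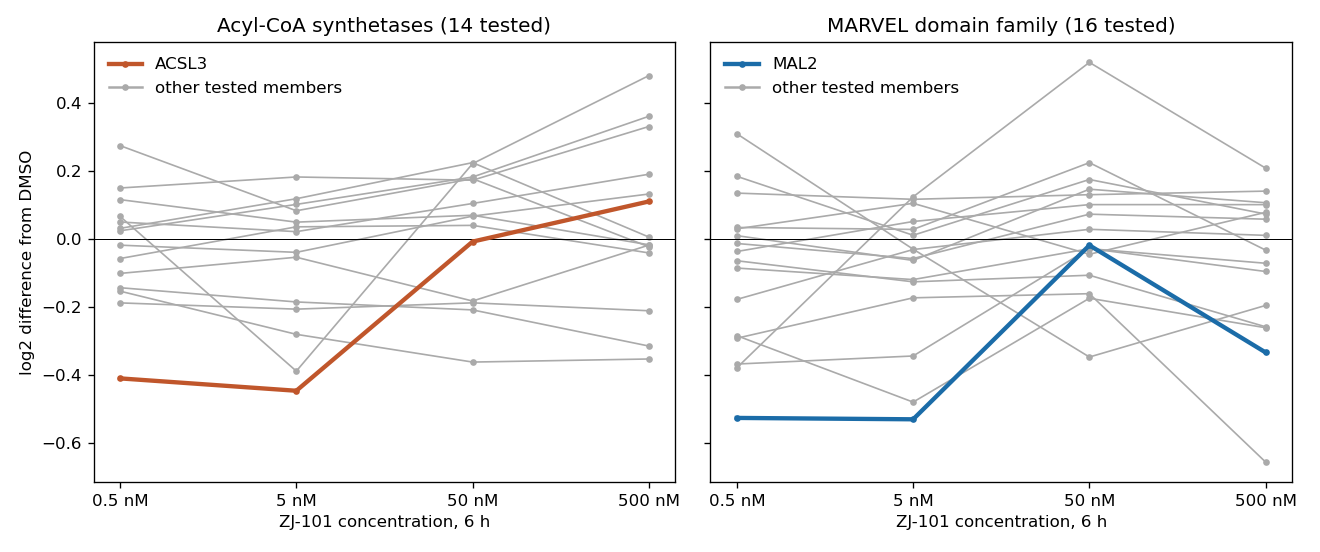
Difference from DMSO on the log2 scale at each ZJ-101 concentration for the 14 tested acyl-CoA synthetases (left, ACSL3 in colour) and the 16 tested MARVEL domain genes (right, MAL2 in colour), with 1 grey line per other member. At 0.5 and 5 nM the coloured line is the lowest of its panel, and at 50 nM it is near 0.

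Genes of fatty acid synthesis and desaturation, which supply and use the acyl chains that ACSL3 activates, included 3 that fell at 0.5 nM. Of 24 tested genes, 3 were lower and 0 higher at 0.5 nM, 3 lower and 0 higher at 5 nM, 2 lower and 4 higher at 50 nM, and 1 lower and 7 higher at 500 nM. Of all genes, 0.922%, 1.71%, 3.71% and 10.1% were lower and 0.251%, 0.465%, 2.29% and 7.69% higher in the same order. The median difference went from -0.075 and -0.067 at the low concentrations to -0.0072 and 0.068. SCD, the desaturase that makes oleoyl-CoA, fell by 0.72 on the log2 scale at 0.5 nM (SE 0.13, limma adjusted p = 0.0119). SREBF1, the transcription factor that drives lipid synthesis genes, fell by 0.29 at 0.5 nM (SE 0.062, limma adjusted p = 0.0279) and by 0.33 at 5 nM (SE 0.062, limma adjusted p = 0.00762). FADS2, a desaturase of polyunsaturated chains, fell by 0.27 at 0.5 nM (SE 0.064, limma adjusted p = 0.0452).

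These calls at 0.5 nM depended on single libraries. That of SCD was lost without DMSO replicate 1 or 2, that of SREBF1 without any of the 3 DMSO libraries or 0.5 nM replicate 1, and that of FADS2 in 12 of 15 fits with a library left out. The call of SREBF1 at 5 nM was lost without 5 nM replicate 2. SREBF1 had 2069 ± 36.7 normalized counts in DMSO, 1692 ± 50.6 at 0.5 nM, 1645 ± 53.8 at 5 nM, 1992 ± 236 at 50 nM and 2119 ± 83.0 at 500 nM (SD, n = 3), with the lowest mean at 5 nM and the highest at 500 nM, as for ACSL3. Its mean at 50 nM was raised by replicate 2 with 2264, whereas replicates 1 and 3 had 1879 and 1834, below the lowest DMSO library at 2034. SCD and INSIG1 had other curves. SCD was at 61.2%, 63.6%, 69.6% and 80.2% of its DMSO mean from 0.5 to 500 nM, and INSIG1 at 77.4%, 68.5%, 58.9% and 54.9%. At 500 nM the largest rises among genes that passed were those of the elongases ELOVL5 (0.43 ± 0.036), ELOVL6 (0.30 ± 0.055) and ELOVL1 (0.23 ± 0.043), and INSIG1, which retains SREBP proteins in the ER, fell by 0.86 (SE 0.11). The limma adjusted p was 8.24e-04 or lower for these 4 genes.

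Genes of glycerolipid synthesis and lipid droplets, where ACSL3 is found, were mostly called upward. Of 30 tested, 2 were higher and 0 lower at 0.5 nM, 2 higher and 1 lower at 5 nM, 9 higher and 2 lower at 50 nM, and 13 higher and 1 lower at 500 nM, with medians of 0.025, 0.044, 0.12 and 0.17. The calls over all genes also grew with concentration, from 0.251% and 0.465% to 2.29% and 7.69% higher and from 0.922% and 1.71% to 3.71% and 10.1% lower. Without 0.5 nM replicate 2, 1 of the 30 was higher and 1 lower at 0.5 nM. GPAT3, which makes lysophosphatidic acid, was 0.19 ± 0.043 above DMSO at 0.5 nM (limma adjusted p = 0.0423) and 0.69 ± 0.043 at 500 nM (limma adjusted p = 1.27e-09). G0S2, an inhibitor of the lipase ATGL, was 0.30 ± 0.064 above DMSO at 0.5 nM (limma adjusted p = 0.0266) and 0.51 ± 0.064 at 500 nM (limma adjusted p = 1.26e-05).

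At 0.5 nM the call of GPAT3 was lost in 12 of 15 fits with a library left out, and that of G0S2 without any of the 3 DMSO libraries or 0.5 nM replicate 2. PLIN4, a droplet coat protein, had the largest difference at 500 nM, 0.93 ± 0.31 (limma adjusted p = 0.0459), on a mean of only 12.7 normalized counts, and its call was lost in 10 of 15 such fits. PLIN3, another coat protein, fell by 0.16 (SE 0.042, limma adjusted p = 0.0128), and its call was lost without DMSO replicate 1 or 2 or 500 nM replicate 3.

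Genes of mitochondrial fatty acid oxidation were called about as often as all genes at 500 nM. Of 18 tested, 0 passed at 0.5 nM, 1 was higher at 5 nM and at 50 nM, and 2 were higher and 1 lower at 500 nM, beside 1.17%, 2.18%, 6.00% and 17.8% of all genes called in either direction. The median differences were 0.11, 0.018, 0.026 and -0.00032. SLC25A20, the carnitine-acylcarnitine carrier, rose by 0.51 ± 0.10 at 500 nM (limma adjusted p = 0.00161) and CPT1A, which makes acylcarnitines, by 0.37 ± 0.061 (limma adjusted p = 2.30e-04). ECI1, an enoyl-CoA isomerase, fell by 0.26 (SE 0.079, limma adjusted p = 0.0250), a call that was lost without any of the 3 DMSO libraries or when 500 nM replicate 2 or 3 was left out.

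Genes of apical transport and transcytosis, the setting in which MAL2 is best known, had 1 of 22 tested members lower at 0.5 nM, 0 called at 5 nM, 1 higher at 50 nM, and 1 higher and 3 lower at 500 nM. Beside them, 1.17%, 2.18%, 6.00% and 17.8% of all genes were called, so that 4 of 22 at 500 nM is near the share of all genes. Their medians were 0.0098, 0.0011, -0.040 and -0.033. MUC1, an apical mucin, fell by 1.18 at 0.5 nM (SE 0.23, limma adjusted p = 0.0163) and by 0.97 at 500 nM (SE 0.23, limma adjusted p = 0.00583). Its level was low, with 38.8 ± 6.52 normalized counts in DMSO, 16.4 ± 1.29 at 0.5 nM, 20.4 ± 2.27 at 5 nM, 32.9 ± 10.2 at 50 nM and 19.3 ± 3.59 at 500 nM (SD, n = 3). The call at 0.5 nM was lost without DMSO replicate 1 or 3.

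TPD52L2, a relative of the MAL2 partner TPD52, rose by 0.26 ± 0.039 at 500 nM (limma adjusted p = 9.50e-05). CD59, a GPI-anchored cargo of this route, fell by 0.19 (SE 0.049, limma adjusted p = 0.0113), a call lost without DMSO replicate 1 or 500 nM replicate 1, and RAB11A, a recycling endosome GTPase, fell by 0.14 (SE 0.043, limma adjusted p = 0.0339), a call lost without any 1 of the DMSO or 500 nM libraries.

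A luminal marker was below DMSO at 0.5, 5 and 500 nM, where MAL2 was also low. CDH1, which encodes E-cadherin, had 196 ± 6.49 normalized counts in DMSO, 113 ± 10.4 at 0.5 nM, 125 ± 20.3 at 5 nM, 168 ± 36.1 at 50 nM and 135 ± 16.4 at 500 nM (SD, n = 3). Of all genes, 0.922%, 1.71% and 10.1% were lower at 0.5, 5 and 500 nM. CDH1 was the 1 luminal gene of 5 tested that passed, with -0.79 at 0.5 nM (limma adjusted p = 0.0119), -0.66 at 5 nM (limma adjusted p = 0.0192) and -0.54 at 500 nM (limma adjusted p = 0.0118). The first 2 calls were lost without any of the 3 DMSO libraries, the one at 5 nM also without 5 nM replicate 1 or 2, and the one at 500 nM without 500 nM replicate 1. Unlike MAL2, CDH1 passed in no step between 5, 50 and 500 nM. It had 0.42 from 5 to 50 nM (limma adjusted p = 0.121) and -0.31 from 50 to 500 nM (limma adjusted p = 0.336). From 5 to 500 nM it had 0.11 (limma adjusted p = 0.708). The other members did not move alike. EPCAM lay between -0.08 and 0.06 on the log2 scale, and GATA3 was at -0.12, -0.11, 0.14 and 0.12 from the lowest to the highest concentration. FOXA1 had 24.3 to 28.8 normalized counts in DMSO and 16.0 to 28.3 at 0.5 nM. PGR had 11.5 to 16.2 in DMSO and 10.0 to 16.6 at 0.5 nM. The median difference of the 5 tested luminal genes, CDH1 included, was -0.12, -0.11, -0.24 and -0.082 across the concentrations. The sum of the whole luminal list, CDH1 included, was 660 to 694 in DMSO, 549 to 578 at 0.5 nM, 575 to 605 at 5 nM, 632 to 708 at 50 nM and 591 to 636 at 500 nM. The part of these markers in the values of MAL2 was not tested.

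The genes most like each of the pair were sought among the other 13560 tested genes by Pearson's r of log2(normalized count + 1) over the 15 libraries, which share scaling and include those that chose the pair, so r is a description. MAL2 and ACSL3 had r = 0.73 and Spearman's rho = 0.53 with each other, which put ACSL3 at rank 129 for MAL2 and MAL2 at rank 322 for ACSL3. The median r of all genes was 0.0064 with MAL2 and -0.0051 with ACSL3, and the 95th percentiles were 0.55 and 0.65.

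Among the genes most like MAL2 were SNTB1, a syntrophin adaptor (r = 0.91), SNCAIP, which encodes synphilin-1 (r = 0.90), AMOTL2, a junction scaffold of the angiomotin family (r = 0.89), and LAMP1, a lysosomal membrane protein (r = 0.89). Their changes in level were mostly smaller than that of MAL2. By Spearman's rho, AMOTL2 ranked 2, SNTB1 10, SNCAIP 72 and LAMP1 147. SNCAIP rested on only 18 to 31 reads per library. SNTB1 went from 659 ± 16.9 normalized counts in DMSO to 589 ± 10.6 at 0.5 nM, 654 ± 15.5 at 50 nM and 600 ± 23.2 at 500 nM (SD, n = 3). The lowest r belonged to HMGA1, a chromatin architecture protein (-0.92), which had 32111 ± 390 in DMSO and 38853 ± 1376 at 0.5 nM, and to CSF3 (-0.90).

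ACSL3 was most like UGCG, the glucosylceramide synthase that starts glycosphingolipid synthesis (r = 0.96), BMP4, a secreted morphogen (r = 0.95), ARNT2, a bHLH-PAS transcription factor (r = 0.93), LCN2, a lipocalin (r = 0.92), and SREBF1 (r = 0.92). By Spearman's rho, UGCG ranked 1, ARNT2 59, BMP4 88, LCN2 137 and SREBF1 150. UGCG had 4209 ± 123 normalized counts in DMSO, 3627 ± 145 at 0.5 nM, 3532 ± 30.4 at 5 nM, 4515 ± 180 at 50 nM and 4595 ± 188 at 500 nM (SD, n = 3). BMP4 went from 1991 ± 59.2 to 1614 ± 57.6, 1551 ± 44.3, 2195 ± 41.9 and 2237 ± 65.6 in the same order. The lowest r belonged to GNA15, a G protein alpha subunit (-0.96), and MMP1 (-0.94). MMP1 ran the other way, with 771 ± 61.0 in DMSO, 1071 ± 54.0 at 0.5 nM, 690 ± 25.9 at 50 nM and 532 ± 1.65 at 500 nM.

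MAL2 (ENSG00000147676.14) lies on the plus strand of chromosome 8 at 119165034 to 119245673 of GRCh38, and its canonical transcript in GENCODE release 44, MAL2-204, has 4 exons and 2826 bases. MAL2 and ACSL3 each share exon bases with an antisense gene, 5.88% with MAL2-AS1 for MAL2 and 2.79% with ACSL3-AS1 for ACSL3. The strand setting of the counting is not given in the sources used here, so reads in these stretches cannot be assigned. The antisense genes themselves had 0 to 2.15 and 0 to 6.45 normalized counts per library. No other gene had a transcript nearly identical to either.

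The nearest tested genes on the chromosomes are given with their curves. Beside MAL2, TNFRSF11B, which encodes osteoprotegerin and lies 213.1 kb away, went from 94.96 ± 27.6 normalized counts in DMSO to 64.2 ± 4.70 at 0.5 nM, 74.0 ± 13.1 at 5 nM, 58.5 ± 6.00 at 50 nM and 44.5 ± 7.05 at 500 nM (SD, n = 3). CCN3, a matricellular protein gene 170.8 kb away on the other side, had 408 ± 6.49 in DMSO, 325 ± 22.2 at 0.5 nM, 282 ± 36.6 at 50 nM and 236 ± 17.3 at 500 nM. Neither was back at its DMSO level at 50 nM, where MAL2 was. Beside ACSL3, FARSB, a phenylalanyl-tRNA synthetase subunit 204.8 kb away, lay between 1127 and 1277 in all libraries. SCG2, a secretogranin 652.3 kb away, rested on only 9 to 18 reads per library, with 15.3 ± 2.56 in DMSO, 10.7 ± 2.34 at 0.5 nM, 11.6 ± 2.58 at 5 nM, 13.3 ± 2.39 at 50 nM and 11.7 ± 2.27 at 500 nM, and passed the threshold against DMSO at no concentration.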

How the data were processed

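The 15 libraries hold RNA from MDA-MB-231 dishes, mapped to groups by the labels. The authors mapped paired 150 bp reads to hg38 (HISAT2), took counts per gene from htseq-count and deposited a signal table of counts divided by DESeq2 size factors. Tool versions and strand are not given in the sources used here. Whole reads were recovered from the smallest step of each library for 100.0% of values (tolerance 0.001). 1 line without a gene was left out.

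limma 3.58.1 was run on log2(normalized count + 1), letting the prior variance follow the mean level, for genes with a mean of at least 10, with all 15 libraries for differences from DMSO and with 9 for those between 5, 50 and 500 nM. p was adjusted over 13561 genes, with a threshold of 0.05. On simulated data for 50 minus 5 nM (13480 genes) it recovered 62 of 98 genes changed by 0.5 and 83 of 99 changed by 1 on the log2 scale, with 12 false calls. Alternatives used edgeR 4.0.16 and DESeq2 1.42.0 on the recovered reads. Counting errors cover sampling of reads only. The sources do not say how far apart the replicate dishes were grown, so p-values measure the spread between these dishes.

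Named genes were MAL2, ACSL3, measured members of their 2 families, in other lists up to 3 rises and 3 falls of largest size at 500 nM and every member called at 0.5 nM, the 5 most and 2 least similar genes (1 is not reported here), neighbours, and the 3 genes next in p. Members and lists were chosen with earlier results of these data known. Replicate pairs differed by more than sampling noise (chi-square per degree of freedom 2.04 to 16.6, with both values over 11 from 0.5 nM replicate 2).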

Additional observations from a re-analysis of the deposited data

How the results depend on the processing

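The 6 differences of MAL2 and ACSL3 between 5, 50 and 500 nM kept their direction and their side of the threshold under every alternative run: pseudocounts of 0.5 and 5, no filter, a mean of at least 50, TMM scaling, the same total per library, edgeR, DESeq2, all 15 libraries in 1 fit, the replicate number as a block, and each library left out. The values against DMSO moved by less than 1 SD between replicates, and the 3 exact tests kept their p under both pseudocounts and both scalings.

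Counts over all genes moved more. With the 6 libraries of a concentration and DMSO alone, 21 genes passed at 0.5 nM (159 in the fit of all libraries) and 846 at 5 nM (295). Without a filter, 372 passed between 5 and 50 nM (866), 113 between 50 and 500 nM (450) and 981 between 5 and 500 nM (1881). Leaving out 1 library gave 19 to 391 calls at 0.5 nM, 113 to 623 at 5 nM, 560 to 1276 at 50 nM, 1795 to 3097 at 500 nM, 567 to 945 between 5 and 50 nM, 218 to 408 between 50 and 500 nM and 1326 to 2115 between 5 and 500 nM. The libraries behind shifts of over 1.5 times were each of DMSO and replicates 1 and 3 of 0.5 nM for 0.5 nM, each of DMSO, 0.5 nM replicate 2 and 5 nM replicates 1 and 2 for 5 nM, 0.5 nM replicate 2 for 50 nM, 5 nM replicate 3 for 5 to 50 nM, and 50 nM replicate 2 and 500 nM replicate 3 for 50 to 500 nM. The cause was not tested.

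Of 1200 recomputed list counts, 155 moved by more than 1.5 times. At 0.5 nM, the calls of FADS2, GPAT3, SREBF1, G0S2 and MUC1 were lost in the 6 libraries alone, those of FADS2, GPAT3 and MUC1 without a filter, that of MUC1 with DESeq2, that of GPAT3 with edgeR and with the same total per library, and those of FADS2 and GPAT3 with the replicate block. At 500 nM, ACSS1, SYNGR3 and PLIN4 were lost with DESeq2, SYNGR3, PLIN4 and RAB11A without a filter, and PLIN4 with the block. By Spearman's rho, 1 of the 5 most similar genes stayed among the top 5 for each of MAL2 and ACSL3.

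No clear pairing by replicate number was seen. Of 30 same-numbered pairs, 0 had a correlation of deviations over 0.1 (range -0.085 to 0.096), and 7 of 15 libraries correlated best with their own number. This check cannot exclude a weak pairing. The replicate block gave 163 calls at 0.5 nM, 869 between 5 and 50 nM and 509 between 50 and 500 nM, and adjusted p = 3.09e-06 (limma) for MAL2 and 6.30e-06 for ACSL3 from 5 to 50 nM. Groups of 3 are too small for a test of single outlying libraries.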
